A study of Mus musculus with 6 samples.

Results

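The genes described here are 10 genes of the megakaryocyte and platelet lineage: Itga2b, Itgb3, Gp1ba, Gp1bb, Gp9, Treml1, Selp, Pf4, Vwf and Timp3. They encode platelet receptors, proteins carried in platelet granules, and the metalloproteinase inhibitor TIMP3. They were taken by name, as the rows of the deposited gene table whose Ensembl ID carries one of these symbols in the GENCODE M21 annotation, and all 10 were found among 43629 gene IDs. All 10 also passed the filter on low counts and were tested together with 15432 genes in all.

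RNA-seq was done on marrow of C57BL/6 mice that had reached leukaemia as their end point, after the c-kit+ cells had been sorted from frozen and thawed samples. Every mouse carried the Cbfb-MYH11 knockin, the mouse form of the fusion gene of human inversion 16 leukaemia, in both groups. The Gata2+/f group had 3 libraries, numbered 7, 9 and 11, and the Gata2+/+ group had 3, numbered 3, 5 and 6. The sources used here do not say what the f allele of Gata2 is at the DNA level, which Cre acted on it, if any, how old the mice were, or how pure the sorted cells were.

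Megakaryocytes are the marrow cells that make platelets. Under GATA, RUNX1, FLI1 and NF-E2 factors and the hormone thrombopoietin they build up platelet receptors, storage granules and tubulin, and then shed platelets into the blood. The integrin of Itga2b and Itgb3 binds fibrinogen and joins platelets to each other. The complex of Gp1ba, Gp1bb, Gp9 and Gp5 binds von Willebrand factor at an injured vessel wall. Several of these genes are also used outside the lineage: Itga2b in early blood progenitors and in mast cell progenitors, Vwf and Selp in endothelium, and Timp3 in stroma and many other tissues.

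Gata2 itself, the gene that differs between the groups, had 498, 273 and 264 CPM (counts scaled to a common library total, as CPM are throughout) in Gata2+/f libraries 7, 9 and 11, against 886, 887 and 737 CPM in Gata2+/+ libraries 3, 5 and 6. The highest Gata2+/f library lay below the lowest Gata2+/+ library, with a log2 fold change (Gata2+/f over Gata2+/+, as throughout) of -1.28 ± 0.32 (SE; edgeR quasi-likelihood test, Benjamini-Hochberg adjusted p = 0.109). DESeq2 gave Gata2 an adjusted p of 0.0072. Library totals ran from 53789568 to 67854631 expected counts, where 3 counts are worth 0.0424 to 0.06 CPM. All pairs of libraries differed beyond sampling noise (chi-square per gene of 240.5 or more). Gata2+/f library 11 was nearer to Gata2+/+ library 5 (chi-square per gene of 385) than to Gata2+/f libraries 7 and 9 (513 and 481). Libraries 7 and 9 were at 475 from each other, so distances within Gata2+/f were alike. Library 11 was at 385 to 631 from the Gata2+/+ libraries, while libraries 7 and 9 were at 623 or more from each of them. The sorted marker Kit had 193, 175 and 328 CPM in Gata2+/f, against 826, 1222 and 1466 CPM in Gata2+/+.

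Genes of mature platelets were uneven in level, so the set's label was not borne out by all of them. Gp1ba and Gp5, receptor subunits of mature platelets, were well expressed: per kilobase, Gp1ba exceeded 80.2% of tested genes in Gata2+/f and 88.2% in Gata2+/+, and Gp5 exceeded 85.6% in Gata2+/f and 84.1% in Gata2+/+. Several other defining genes were scarce in both groups. Ppbp, the chemokine of platelet granules, had 1, 4 and 9 expected counts in Gata2+/f, against 1, 10 and 1 in Gata2+/+, and stayed below the filter. Gp6, the collagen receptor of platelets, was at 0 in every library. Tubb1, the tubulin of platelets, did not exceed 1.4 CPM, and Gp9 did not exceed 1.22 CPM. Pf4 stayed below 1 CPM in 5 of 6 libraries. Gp5, Ppbp, Gp6 and Tubb1 were singled out here after their values were known. In whole libraries such as these, fewer cells of a type and less RNA per cell cannot be told apart.

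The promoter windows of 5 genes are shown because 4 of them (Itga2b, Pf4, Selp and Timp3) had the smallest p-values of the set, and Gp1ba had the most GATA matches. They are the bases just before the annotated start in RefSeq, build GRCm38.p6, written 5' to 3' on the gene's own strand. Capitals mark GATA and ETS matches on either strand, and no other motif. The GATA letters searched were AGATAA and its variant AGATAG, together with TGATAA and its variant TGATAG. The ETS letters searched were AGGAAG and the variant CGGAAG. The windows are chr11:102469884-102470133 on the minus strand for Itga2b, chr11:70638872-70639121 on the plus strand for Gp1ba, chr5:90772185-90772434 on the plus strand for Pf4, chr1:164115014-164115263 on the plus strand for Selp, and chr10:86300162-86300371 on the plus strand for Timp3. Each holds 250 bases, except that of Timp3, which holds 210 because 40 bases lie in an annotated exon. The Itga2b window precedes the start of its protein-coding transcript, while the gene's span given below also takes in a non-coding GENCODE transcript that starts inside the window. Bases of that non-coding transcript were kept in the window.
Itga2b: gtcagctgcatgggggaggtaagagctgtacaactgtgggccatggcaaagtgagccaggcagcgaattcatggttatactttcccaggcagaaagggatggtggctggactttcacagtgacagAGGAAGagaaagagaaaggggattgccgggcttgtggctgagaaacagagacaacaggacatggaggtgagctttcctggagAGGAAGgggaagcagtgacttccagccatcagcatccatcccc
Gp1ba: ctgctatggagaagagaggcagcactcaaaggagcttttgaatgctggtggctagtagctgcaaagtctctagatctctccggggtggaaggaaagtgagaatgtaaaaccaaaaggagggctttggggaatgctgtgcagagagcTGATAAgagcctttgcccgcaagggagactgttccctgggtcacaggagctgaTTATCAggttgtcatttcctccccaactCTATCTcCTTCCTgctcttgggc
Pf4: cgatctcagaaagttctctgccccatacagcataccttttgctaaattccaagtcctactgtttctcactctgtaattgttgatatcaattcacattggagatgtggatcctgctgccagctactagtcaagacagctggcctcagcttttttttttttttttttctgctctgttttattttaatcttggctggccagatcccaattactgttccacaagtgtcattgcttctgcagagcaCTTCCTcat
Selp: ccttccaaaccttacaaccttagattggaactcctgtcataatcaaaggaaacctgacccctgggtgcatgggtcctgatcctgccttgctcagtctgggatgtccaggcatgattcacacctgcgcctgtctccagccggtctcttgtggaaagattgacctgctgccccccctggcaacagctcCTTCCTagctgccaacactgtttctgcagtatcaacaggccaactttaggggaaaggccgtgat
Timp3: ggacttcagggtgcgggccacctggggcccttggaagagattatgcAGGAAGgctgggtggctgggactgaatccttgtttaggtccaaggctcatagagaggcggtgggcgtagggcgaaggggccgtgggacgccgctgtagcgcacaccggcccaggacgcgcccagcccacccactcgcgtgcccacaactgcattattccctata

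The RefSeq table held promoters of 8 of the 10 genes, all but Itgb3 and Vwf, and 250 bases before the start were searched. GATA letters were found in 2 of 8, in Gp1ba and Gp1bb, against 26.5% of 32851 promoters in the table. The Gp1ba window held them 3 times, at -104 to -99, -51 to -46 and -23 to -18, where -1 is the last base before the start. ETS letters were found in 7 of 8, all but Treml1, against 39.2% of promoters. Itga2b had ETS letters at -125 to -120 and at -43 to -38, Pf4 at -9 to -4, Selp at -64 to -59 and Timp3 at -204 to -199. The Timp3 position counts from the RefSeq start, which lies past the 40 bases left out of its printed window. RUNX letters (TGTGGT or TGCGGT) were found in Gp9 alone of the 8, against 18.6% of promoters. For NF-E2 and AP-1 a loose form of their site was searched, TGANTCA with any base at N. It was found in Gp1bb as TGAATCA and in Selp as TGATTCA, neither with G or C at N, against 6.75% of promoters. No GATA match overlapped an ETS match in these 8 windows. These matches are letters in a window and are not evidence of binding, and a window without them says nothing about the factor.

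Of the 10 genes, 4 were higher in Gata2+/f and 6 were lower, against 51.1% and 48.9% of all tested genes. None of the 10 passed edgeR's quasi-likelihood test at a Benjamini-Hochberg adjusted p of 0.05, and neither did any of the 15432 tested genes (0.0%). At an unadjusted p under 0.05, edgeR gave 4 of 10, against 22.6% of all tested genes: Pf4 and Selp were higher, and Itga2b and Timp3 were lower. In each direction these are 2 of 10, against 11.1% of all tested genes higher and 11.5% lower at that p. DESeq2 gave an adjusted p for 8 of the 10 and placed 3 of them past 0.05, against 11.8% of all genes with such a value; Itga2b and Timp3 were lower (5.71% of all genes) and Selp was higher (6.08%). The groups did not overlap in 3 of 10, the same 3 genes, against 29.7% of all tested genes (13.1% higher and 16.6% lower). The median log2 fold change of the set was -0.15, against 0.019 over all tested genes.

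**Figure D1:**
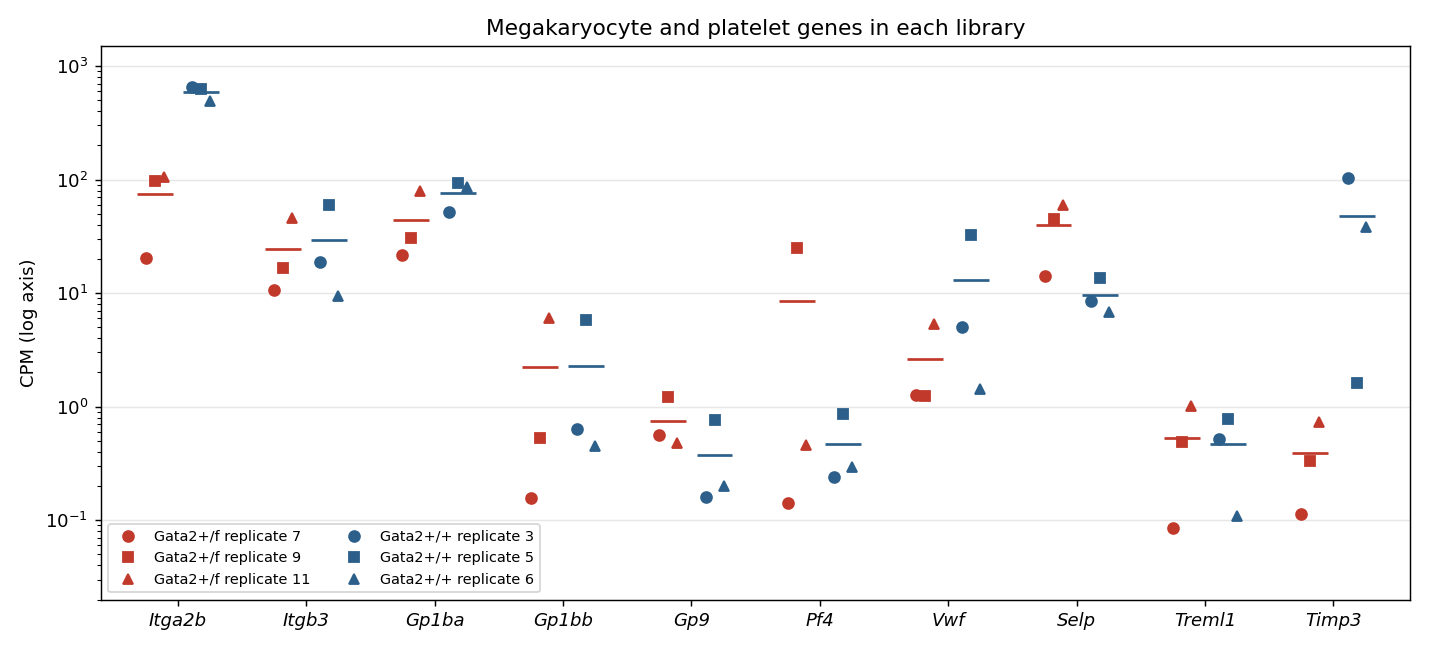
Level of each of the 10 genes in CPM on a log axis, with 1 point per library, Gata2+/f left and Gata2+/+ right, and a horizontal line at the mean of each group. Itga2b, Selp and Timp3 have groups that do not overlap, and a single Gata2+/f library holds the Pf4 reading of 24.9 CPM.

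Itga2b, the integrin alpha subunit that marks megakaryocytes and early blood progenitors, had the highest level per kilobase of the set in Gata2+/+ (chr11, 102453297 to 102470122, minus strand, GRCm38). It had 20.4, 97.1 and 106 CPM in Gata2+/f libraries 7, 9 and 11, against 647, 625 and 495 CPM in Gata2+/+ libraries 3, 5 and 6. Every Gata2+/f library lay below every Gata2+/+ library, and Gata2+/f library 7 was the lowest. The means were 74.7 ± 47.3 CPM in Gata2+/f and 589 ± 82.4 CPM in Gata2+/+ (SD, n = 3 each), so that Gata2+/f held 12.7% of the Gata2+/+ level. The log2 fold change was -2.98 ± 0.59 (SE, with a 95% interval of -4.34 to -1.62; edgeR quasi-likelihood test, adjusted p = 0.0966), and DESeq2 gave -2.96 (adjusted p = 5.85e-05). The difference did not pass the edgeR threshold, and it stayed between -3.29 and -2.49 when each library was left out in turn.

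Mast cell and basophil markers were mostly lower alongside Itga2b, though not Prss34 and Mcpt8 alike, as given below. Of 10 tested markers 9 were lower in Gata2+/f and 1 was higher, against 48.9% and 51.1% of all tested genes. At an unadjusted p under 0.05 in edgeR, 6 were lower and 1 was higher, against 11.5% and 11.1% of all tested genes. Their summed level was 1074, 880 and 3547 CPM in Gata2+/f, against 9466, 8861 and 10909 CPM in Gata2+/+, and none of the 11 listed markers was at 0 in all libraries. Cma1, a mast cell chymase, had 1.61, 97.9 and 98.8 CPM in Gata2+/f, against 3188, 2146 and 2996 CPM in Gata2+/+. Cpa3, a mast cell carboxypeptidase, had 96.8, 151 and 1454 CPM in Gata2+/f, against 2318, 3690 and 3550 CPM in Gata2+/+. The higher marker was Prss34, at 0.877, 2.12 and 7.64 CPM in Gata2+/f, against 0.64, 0.664 and 0.14 CPM in Gata2+/+. Mcpt8 had 3.45, 41.6 and 9.39 CPM in Gata2+/f, against 40.6, 53.6 and 7.09 CPM in Gata2+/+, and the groups overlapped. Prss34 and Mcpt8 were named after their values were seen. The part of mast cells and basophils in the Itga2b difference was not tested.

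Itgb3, the beta subunit that pairs with the product of Itga2b, showed another pattern (chr11, 104608000 to 104670476, plus strand). It had 10.6, 16.7 and 45.6 CPM in Gata2+/f, against 18.9, 59.9 and 9.41 CPM in Gata2+/+. The groups overlapped over most of their range, with library 11 highest in Gata2+/f and library 5 highest in Gata2+/+. Their log2 fold change was -0.27 ± 0.76 (SE, with a 95% interval of -2.04 to 1.49; edgeR quasi-likelihood test, adjusted p = 0.853). Its sign turned when single libraries were left out, to 0.12 without Gata2+/f library 7 and to 0.77 without Gata2+/+ library 5. Itgav, the other alpha subunit that pairs with it, had 13.9, 9.49 and 25.4 CPM in Gata2+/f, against 23.5, 16.2 and 22.9 CPM in Gata2+/+.

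Set against each other per kilobase of exon, the ratio of Itga2b to Itgb3 was 2.08, 6.29 and 2.53 in Gata2+/f, against 37.1, 11.3 and 56.9 in Gata2+/+. The alpha subunit thus exceeded the beta subunit in every library, and the highest Gata2+/f ratio lay below the lowest Gata2+/+ ratio. The mean log2 difference of the ratio was -3.16 (exact permutation test over samples, two-sided, p = 0.1, the smallest p that 3 libraries against 3 allow; adjusted p = 0.3 over 3 subunit pairs).

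**Figure D2:**
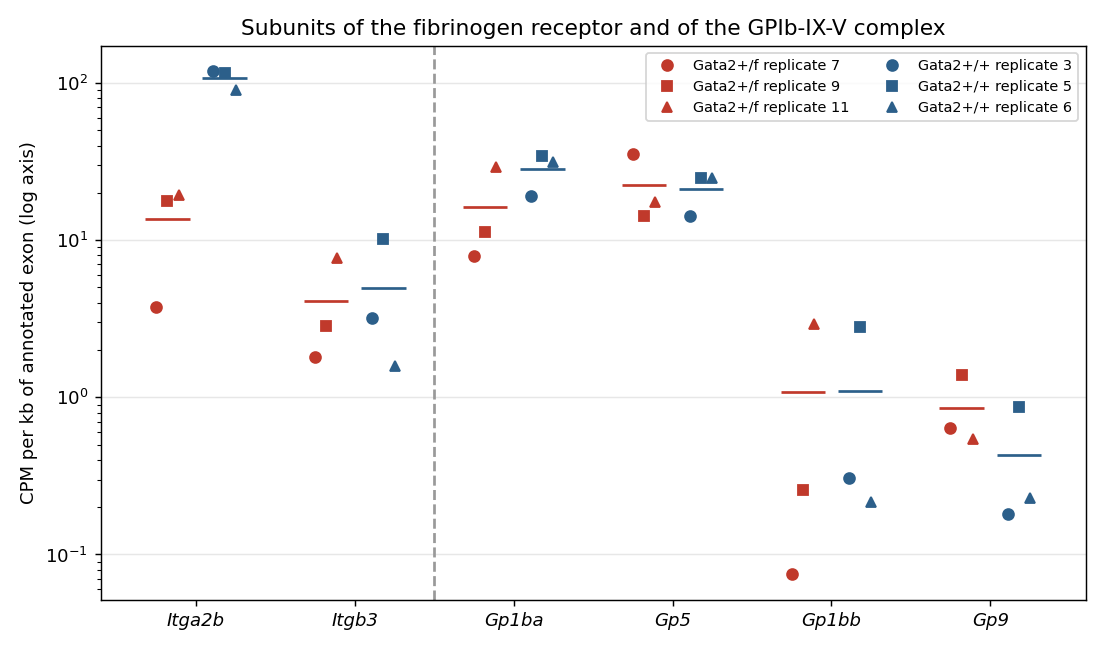
Levels per kilobase of exon (CPM per kb, log axis) of the integrin pair Itga2b and Itgb3 and of the von Willebrand factor receptor subunits Gp1ba, Gp1bb, Gp9 and Gp5, with 1 point per library and Gata2+/f left of Gata2+/+. Itga2b is at 13.7 in Gata2+/f and 108 in Gata2+/+ on average, while Gp1bb and Gp9 lie far below Gp1ba and Gp5 in both groups.

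The subunits of the von Willebrand factor receptor were unequal in level, and none of them differed between the groups past the threshold. Gp1ba, the subunit that binds von Willebrand factor, had 21.5, 30.4 and 79.9 CPM in Gata2+/f, against 51.5, 92.6 and 85.4 CPM in Gata2+/+ (chr11, 70639122 to 70642036, plus strand). Libraries 7 and 9 of Gata2+/f lay below every Gata2+/+ library, and library 11 lay within their range. The means were 44.0 ± 31.5 CPM in Gata2+/f and 76.5 ± 21.9 CPM in Gata2+/+ (SD, n = 3 each). The log2 fold change was -0.80 ± 0.50 (SE; edgeR quasi-likelihood test, adjusted p = 0.364), and it was -1.52 without Gata2+/f library 11 (adjusted p = 0.0917). Without that library edgeR placed 66 of 15782 genes past the threshold (0.418%) and 0 of the 10 genes.

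Gp1bb, the beta subunit joined to the product of Gp1ba, had 0.156, 0.535 and 6.07 CPM in Gata2+/f, against 0.64, 5.82 and 0.452 CPM in Gata2+/+ (chr16, 18620317 to 18622403, minus strand). A single library was high in each group, number 11 in Gata2+/f and number 5 in Gata2+/+, and the groups overlapped almost fully. The log2 fold change was -0.033 ± 1.41 (SE; edgeR quasi-likelihood test, adjusted p = 0.991). It was -2.72 without Gata2+/f library 11 and 2.04 without Gata2+/+ library 5, and it also turned positive without Gata2+/f library 7 (0.55) or 9 (0.47). The reading is uncertain, because 91.1% of its exon bases (1902 bases) also belong to Sept5, a septin gene on the same strand. Sept5 had 9.68, 13.8 and 14.3 CPM in Gata2+/f, against 0.82, 2.64 and 0.779 CPM in Gata2+/+, with a log2 fold change of 3.15 ± 0.60 (SE; edgeR adjusted p = 0.0966, DESeq2 adjusted p = 2.69e-06). How RSEM divided reads between Gp1bb and Sept5 was not tested.

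Gp9, the small subunit that holds the complex at the cell surface, had 40, 73 and 32 expected counts in Gata2+/f, against 8, 45 and 13 in Gata2+/+ (chr6, 87778072 to 87779768, plus strand). These counts correspond to 0.566, 1.22 and 0.478 CPM in Gata2+/f, against 0.16, 0.766 and 0.202 CPM in Gata2+/+. The groups overlapped through Gata2+/+ library 5, with a log2 fold change of 1.0 ± 0.75 (SE, with a 95% interval of -0.76 to 2.75; edgeR quasi-likelihood test, adjusted p = 0.449). Without Gata2+/+ library 5 it was 2.03 (adjusted p = 0.193). Gp5, the remaining subunit and no member of the set, had 77.5, 31.4 and 38.3 CPM in Gata2+/f, against 31.3, 54.3 and 55.0 CPM in Gata2+/+, with a log2 fold change of 0.066 ± 0.40 (SE; edgeR adjusted p = 0.937).

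Per kilobase of exon, Gp5 averaged 22.3 ± 11.3 in Gata2+/f and 21.3 ± 6.14 in Gata2+/+ (CPM per kb, SD, n = 3 each), and Gp1ba averaged 16.2 ± 11.6 in Gata2+/f and 28.1 ± 8.07 in Gata2+/+. Gp1bb averaged 1.08 ± 1.59 in Gata2+/f and 1.10 ± 1.46 in Gata2+/+, and Gp9 averaged 0.857 ± 0.46 in Gata2+/f and 0.427 ± 0.384 in Gata2+/+. In all 6 libraries the lower of Gp1ba and Gp5 exceeded the higher of Gp1bb and Gp9. The ratio of Gp1ba to Gp9 was 12.3, 8.08 and 54.2 in Gata2+/f, against 104, 39.2 and 137 in Gata2+/+ (mean log2 difference -2.23, exact permutation test p = 0.2, adjusted p = 0.3). The ratio of Gp1ba to Gp1bb was 106, 43.7 and 10.1 in Gata2+/f, against 61.8, 12.2 and 145 in Gata2+/+ (exact permutation test p = 0.7).

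Treml1, a receptor stored in platelet granules, had the lowest level per kilobase of the set in Gata2+/+ (chr17, 48359916 to 48367176, plus strand). It had 6, 29 and 68 expected counts in Gata2+/f, against 26, 46 and 7 in Gata2+/+. The lowest and highest libraries of both groups interleaved, and the log2 fold change was 0.17 ± 0.97 (SE; edgeR quasi-likelihood test, adjusted p = 0.935). It was -0.7 without Gata2+/f library 11 and -0.27 without Gata2+/+ library 6.

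Selp encodes P-selectin, the adhesion receptor that activated platelets and endothelium bring from their granules to the surface to hold leukocytes. It was the only gene of the set whose every Gata2+/f library lay above every Gata2+/+ library, against 13.1% of all tested genes (chr1, 164115264 to 164150026, plus strand). It had 14.1, 45.2 and 59.7 CPM in Gata2+/f, against 8.58, 13.7 and 6.77 CPM in Gata2+/+. The gap was narrow between Gata2+/f library 7 and Gata2+/+ library 5, and wide for libraries 9 and 11. The means were 39.7 ± 23.3 CPM in Gata2+/f and 9.70 ± 3.61 CPM in Gata2+/+ (SD, n = 3 each), a difference of 4.09-fold. For Selp the log2 fold change was 2.03 ± 0.55 (SE, with a 95% interval of 0.76 to 3.31; edgeR quasi-likelihood test, adjusted p = 0.125), and DESeq2 gave 2.06 (adjusted p = 0.00806). It stayed between 1.64 and 2.48 when each library was left out in turn.

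Endothelial markers were mostly higher alongside Selp. Of the 11 listed, 8 were tested and 7 were higher in Gata2+/f, against 51.1% of all tested genes. Of the 8, 2 were higher at an unadjusted p under 0.05 in edgeR, against 11.1% of all tested genes. Their summed level was 93.8, 219.8 and 188 CPM in Gata2+/f, against 60.8, 74.2 and 118 CPM in Gata2+/+. Pecam1, an adhesion molecule that blood cells also express, had 46.5, 52.6 and 64.1 CPM in Gata2+/f, against 8.82, 24.5 and 7.38 CPM in Gata2+/+. Kdr, a receptor for vascular endothelial growth factor, had 1.09, 1.79 and 0.822 CPM in Gata2+/f, against 0.14, 0.545 and 0.0623 CPM in Gata2+/+, so the groups overlapped for neither gene. Cdh5, the cadherin that defines endothelium, was low but higher in every Gata2+/f library, at 0.127, 0.0835 and 0.374 CPM in Gata2+/f, against 0, 0 and 0.0467 CPM in Gata2+/+. Cldn5 and Sele did not exceed 0.184 and 0.221 CPM in any library. Egfl7 had 38.0, 101 and 51.1 CPM in Gata2+/f, against 39.7, 20.1 and 66.9 CPM in Gata2+/+. Eng had 7.05, 60.6 and 45.9 CPM in Gata2+/f, against 6.6, 21.6 and 38.7 CPM in Gata2+/+. The groups overlapped for both Egfl7 and Eng. Stab2 was the tested marker that was lower, at 27.8% of the Gata2+/+ level. Kdr, Cdh5, Cldn5, Sele and Stab2 were named after their values were seen. Late neutrophil markers were higher alongside Selp, in 9 of 9 genes, each at an unadjusted p under 0.05 in edgeR: their summed level was 3988, 4201 and 7937 CPM in Gata2+/f, against 149, 436 and 263 CPM in Gata2+/+. The part of endothelial cells and of neutrophils in the Selp difference was not tested. Selp also overlaps the antisense genes Gm16587 (186 exon bases) and Gm16548 (438 exon bases), both at 0.942 CPM or less in every library.

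Among the granule ligands, Pf4 encodes platelet factor 4, the chemokine that is the classic marker of megakaryocytes (chr5, 90772435 to 90773383, plus strand). It had 10, 1493 and 31 expected counts in Gata2+/f, against 12, 51 and 19 in Gata2+/+. These are 0.141, 24.9 and 0.463 CPM in Gata2+/f, against 0.24, 0.868 and 0.296 CPM in Gata2+/+. Gata2+/f library 9 stood apart from the other 5, which lay within the same low range, and it exceeded the lowest Gata2+/f library 176-fold. Its log2 fold change was 4.18 ± 1.79 (SE; edgeR quasi-likelihood test, adjusted p = 0.22), and it was -0.59 without Gata2+/f library 9 (adjusted p = 0.733). DESeq2 gave Pf4 no p because of an outlying count. Ppbp, the neighbouring platelet chemokine gene 3.92 kb away, had 4 counts in library 9.

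Vwf, the large adhesive protein of platelet granules and endothelium, was carried by a single library of the other group (chr6, 125546774 to 125686679, plus strand). It had 1.26, 1.24 and 5.32 CPM in Gata2+/f, against 5.02, 32.7 and 1.43 CPM in Gata2+/+. Gata2+/+ library 5 was far above the rest, and the other 5 libraries overlapped. Its log2 fold change was -2.32 ± 1.15 (SE, with a 95% interval of -4.99 to 0.35; edgeR quasi-likelihood test, adjusted p = 0.269), and it was -0.31 without Gata2+/+ library 5 (adjusted p = 0.867).

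Timp3, an inhibitor of matrix metalloproteinases and of ADAM and ADAMTS proteases that platelets also carry, had the largest log2 fold change of the set (chr10, 86300372 to 86349506, plus strand). It had 8, 20 and 49 expected counts in Gata2+/f, against 5152, 95 and 2468 in Gata2+/+. These are 0.113, 0.334 and 0.732 CPM in Gata2+/f, against 103, 1.62 and 38.4 CPM in Gata2+/+. Every Gata2+/f library lay below every Gata2+/+ library, but Gata2+/+ library 5 was close to the Gata2+/f range, and Gata2+/+ libraries spanned 63.7-fold. The means were 0.393 ± 0.314 CPM in Gata2+/f and 47.7 ± 51.3 CPM in Gata2+/+ (SD, n = 3 each), so that Gata2+/f held 0.828% of the Gata2+/+ level. Its log2 fold change was -6.92 ± 1.5 (SE, with a 95% interval of -10.4 to -3.43; edgeR quasi-likelihood test, adjusted p = 0.0966), and DESeq2 gave -6.89 (adjusted p = 7.04e-08). It ran from -7.69 to -5.58 when each library was left out in turn.

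Timp3 lies inside Syn3, a synapsin gene on the opposite strand, with which it shares 1733 exon bases. Syn3 had 0.0566, 1.25 and 0.329 CPM in Gata2+/f, against 0.36, 0.221 and 0.561 CPM in Gata2+/+. The 2 Gata2+/+ libraries that were high in Timp3 were thus at 0.561 CPM of Syn3 or less. Stromal markers, the usual company of Timp3, gave summed levels of 4.53, 16.7 and 61.4 CPM in Gata2+/f, against 54.0, 49.3 and 59.4 CPM in Gata2+/+. Of 10 stromal markers 3 were tested and all 3 were lower in Gata2+/f, against 48.9% of all tested genes. Of the 3, 1 was lower at an unadjusted p under 0.05 in edgeR, against 11.5%. The untested markers were near the floor: Col3a1 and Lum were at 0 in every library, and Col1a1 and Col1a2 did not exceed 20 and 23 expected counts. The summed levels came mostly from Cxcl12 and Pdgfrb. Pdgfrb, a receptor of stromal and perivascular cells, had 3.99, 15.3 and 6.92 CPM in Gata2+/f, against 24.2, 30.2 and 33.8 CPM in Gata2+/+, with no overlap. Cxcl12, a stromal chemokine, had 0.0566, 1.04 and 53.8 CPM in Gata2+/f, against 29.2, 18.6 and 25.1 CPM in Gata2+/+, and the groups overlapped. Mast cell markers, given above, were lower in the same libraries. The part of stroma and of mast cells in the Timp3 difference was not tested.

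**Figure D3:**
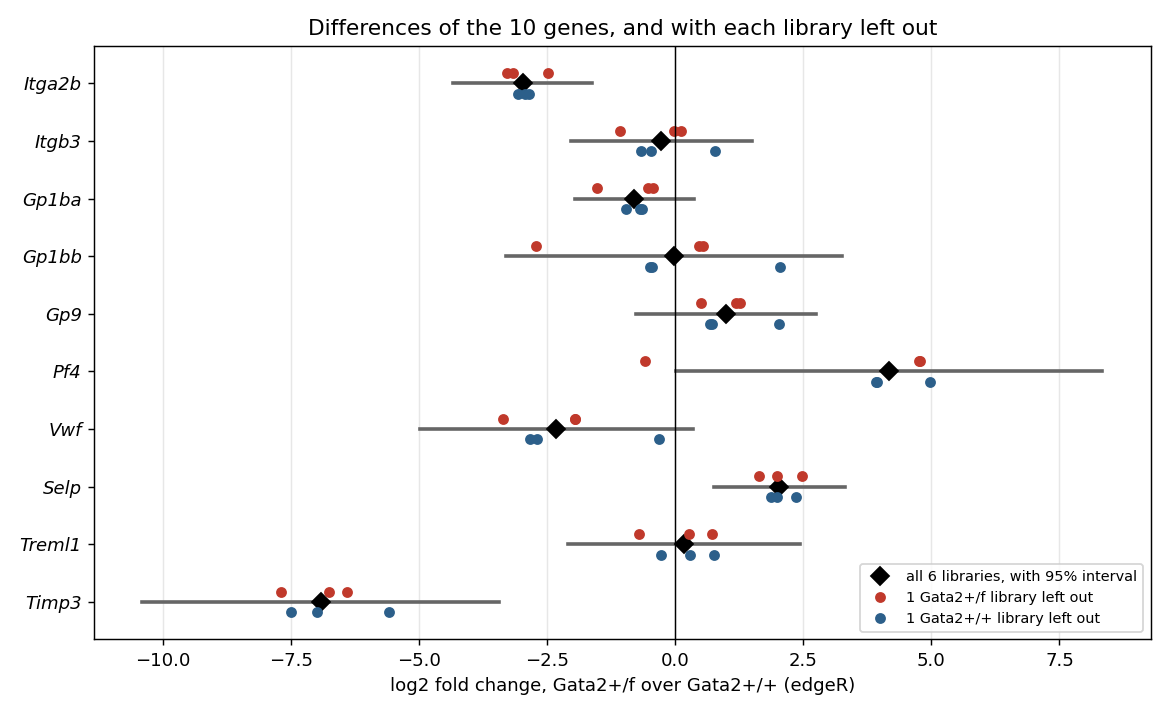
Log2 fold change of Gata2+/f over Gata2+/+ for each of the 10 genes from edgeR, with bars for the 95% interval. The interval lies below 0 for Itga2b and Timp3 and above 0 for Selp and Pf4, that of Pf4 starting at 0.017, and no gene passes the adjusted threshold.

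Per kilobase, the order of the 10 genes differed between the groups. In Gata2+/f the means ran from Gp1ba at 16.2, Itga2b at 13.7, Pf4 at 11.8 and Selp at 8.99 CPM per kb down to Vwf at 0.162 and Timp3 at 0.0483. In Gata2+/+ they ran from Itga2b at 108, Gp1ba at 28.1, Timp3 at 5.86 and Itgb3 at 4.98 CPM per kb down to Gp9 at 0.427 and Treml1 at 0.336. In Gata2+/f the neighbours Gp1ba, Itga2b, Pf4 and Selp did not differ beyond their SDs of 11.6, 8.66, 19.7 and 5.28. In Gata2+/+ Itga2b stood clear of Gp1ba, with SDs of 15.1 and 8.07, and Timp3 and Itgb3 did not differ beyond their SDs of 6.3 and 4.55. Itga2b exceeded 77.1% of tested genes by this measure in Gata2+/f and 97.3% in Gata2+/+.

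Within a group the genes tended to be high in the same library. In Gata2+/f, library 11 was the highest for 8 of the 10 genes, against 31.0% of all tested genes, and library 7 the lowest for 8, against 33.5%. Gp9 and Pf4, the exceptions, were highest in library 9. In Gata2+/+, library 5 was the highest for 8 of the 10, against 34.3% of all tested genes, with Itga2b and Timp3 highest in library 3. Library 6 was the lowest in Gata2+/+ for 6 of the 10, against 30.6%. Without Gata2+/f library 11, the log2 fold change was -3.29 for Itga2b, -1.08 for Itgb3, 1.26 for Gp9 and 4.76 for Pf4. It was -3.37 for Vwf, 1.64 for Selp and -7.69 for Timp3 without that library. None of these passed the adjusted threshold in edgeR.

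Each gene's pattern over the 6 libraries was compared with all genes of at least 1 CPM on average, by the root mean square difference of log2 CPM after centring each gene on its own mean. The nearest genes to Itga2b were Gsg1l (0.26) and Rsph9 (0.35), to Gp1ba Rnase6 (0.21) and Cnbd2 (0.22), and to Selp Cfp (0.18) and Mfsd7a (0.19). Gp9 lay nearest to Tacc2 (0.17) and Il22ra2 (0.20), and Itgb3 to Galnt2 (0.32) and Slamf1 (0.35). Treml1 lay nearest to Rtn4r (0.37) and Slamf1 (0.43), so that Slamf1 was on the list of both Itgb3 and Treml1. Itgb3 and Treml1 were also the closest pair within the set (0.57).

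Vwf, Gp1bb, Pf4 and Timp3 had more distant neighbours. Vwf lay nearest to Krba1 (0.79) and Rtn4rl1 (0.80), and Gp1bb to Saa3 (0.54) and Gm16299 (0.68). Pf4 lay nearest to Hif3a (0.65) and Igf2bp3 (0.71): Hif3a had 0.863, 64.9 and 1.09 CPM in Gata2+/f, against 1.58, 2.18 and 2.16 CPM in Gata2+/+, so it too was high in Gata2+/f library 9 alone. Timp3 lay nearest to Mfhas1 (0.98), which had 0.877, 0.852 and 2.29 CPM in Gata2+/f, against 71.4, 6.38 and 76.0 CPM in Gata2+/+, and next to Mlph (1.28). With 6 libraries and 12596 genes to choose from, a close match is a description only.

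The wider set of platelet receptors and surface genes, which excludes the 10, had 19 of 21 genes tested. In Gata2+/f 13 were higher and 6 lower, with a median log2 fold change of 0.24. None passed the adjusted threshold in edgeR; at an unadjusted p of 0.05, 2 of 19 passed as higher and 0 as lower, against 11.1% and 11.5% of all tested genes, and DESeq2 called 1 higher (6.08% of all genes) and 0 lower. F11r, a junctional adhesion molecule, had 7.06, 3.68 and 12.3 CPM in Gata2+/f, against 0.64, 3.54 and 1.12 CPM in Gata2+/+ (log2 fold change 2.12 ± 0.76 SE; edgeR adjusted p = 0.174, DESeq2 adjusted p = 0.0333). Tbxa2r, the thromboxane receptor, and Esam, another adhesion molecule, had log2 fold changes of 2.13 ± 0.89 and 1.65 ± 0.76 (SE), and neither passed in edgeR or DESeq2. The groups did not overlap in 1 higher gene, F11r, and in 2 lower genes, against 13.1% and 16.6% of all tested genes. The 2 lower genes were Mpig6b and F2rl2, named after their values were seen. Their log2 fold changes were -1.62 ± 0.84 and -1.68 ± 0.81 (SE), and neither passed in edgeR or DESeq2.

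Of 30 granule, cytoskeletal and enzyme genes of platelets, 25 were tested, 10 were higher and 15 lower in Gata2+/f, and the median was -0.18. None passed the adjusted threshold in edgeR, while the unadjusted p was under 0.05 for 2 higher and 7 lower genes of the 25, against 11.1% and 11.5% of all tested genes. DESeq2 called 2 higher and 4 lower, against 6.08% and 5.71%. Tubb2a, a beta tubulin, had 31.1, 11.2 and 20.3 CPM in Gata2+/f, against 189.8, 115 and 214 CPM in Gata2+/+ (log2 fold change -3.05 ± 0.43 SE; edgeR adjusted p = 0.0955, DESeq2 adjusted p = 4.6e-08). Rab27b, a small GTPase of granule secretion, had 41.6, 46.9 and 118 CPM in Gata2+/f, against 348, 377 and 377 CPM in Gata2+/+ (log2 fold change -2.42 ± 0.43 SE; edgeR adjusted p = 0.0955). Nbeal2, needed to form alpha granules, had 41.2, 70.3 and 98.5 CPM in Gata2+/f, against 250, 325 and 187 CPM in Gata2+/+ (log2 fold change -1.86 ± 0.37 SE; edgeR adjusted p = 0.0966). The groups did not overlap for any of these 3 genes. DESeq2 gave an adjusted p of 7.11e-05 for Rab27b and of 0.00106 for Nbeal2. Rab27b also serves mast cell granules, whose markers were lower in the same libraries, and their part was not tested.

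**Figure D4:**
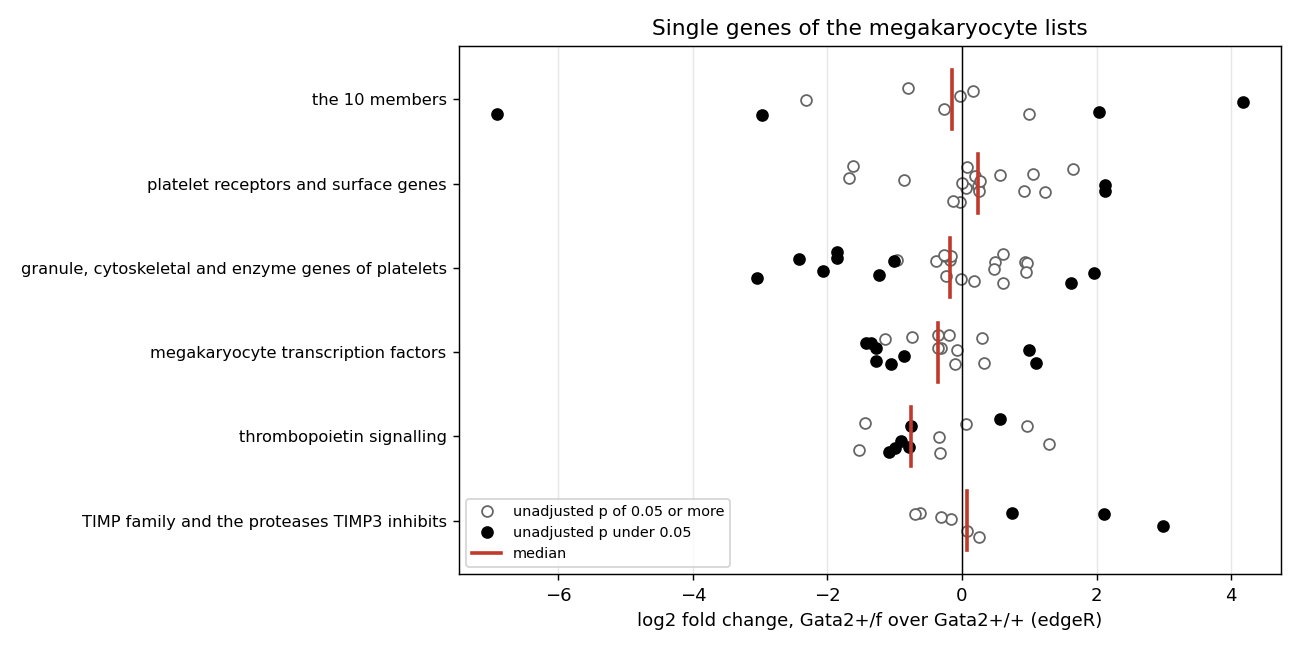
Log2 fold change of Gata2+/f over Gata2+/+ for the 10 genes and each tested gene of the 5 pathway lists, 1 point per gene (filled where the unadjusted p is under 0.05), with the median of each list as a red line. The pathway medians run from -0.76 for thrombopoietin signalling to 0.24 for the surface genes, and points of every list lie on both sides of 0.

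Of the transcription factors of the lineage, 18 of 19 listed were found and tested, 4 were higher and 14 lower in Gata2+/f, with a median of -0.35. At an unadjusted p under 0.05 in edgeR 2 of 18 were higher and 6 lower, Gata2 among them, against 11.1% and 11.5% of all tested genes. None passed the adjusted threshold in edgeR, and DESeq2 called 1 higher and 2 lower, against 6.08% and 5.71%. The genes called were Mef2c (DESeq2 adjusted p = 0.0281), Gata2 (0.0072) and Tal1 (0.0115). Tal1, a partner of GATA factors, had 339, 160 and 355 CPM in Gata2+/f, against 746, 718 and 729 CPM in Gata2+/+ (log2 fold change -1.36 ± 0.33 SE; edgeR adjusted p = 0.108). Mef2c, which acts in megakaryocyte and lymphoid cells, had 14.7, 13.9 and 18.6 CPM in Gata2+/f, against 7.32, 9.69 and 4.97 CPM in Gata2+/+ (log2 fold change 1.10 ± 0.36 SE; edgeR adjusted p = 0.155). Runx1 and Fli1 had log2 fold changes of -1.28 ± 0.54 and -0.86 ± 0.28 (SE), and Gfi1b, a repressor of the lineage, had 1.0 ± 0.33 (SE). Gata1 and Nfe2, which drive late megakaryocyte genes, had 0.30 ± 0.31 and 0.33 ± 0.31 (SE). None of these 5, named after their values were seen, passed the adjusted threshold in edgeR or DESeq2.

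Of 15 names listed for thrombopoietin signalling, 14 were found in the annotation and 13 were tested. Of these 13 genes, 4 were higher and 9 lower in Gata2+/f, with a median of -0.76. In edgeR the unadjusted p was under 0.05 for 1 higher and 5 lower genes of the 13, against 11.1% and 11.5% of all tested genes. None passed the adjusted threshold in edgeR, and DESeq2 called 0 higher and 2 lower, against 6.08% and 5.71%. The genes called were Stat5a (DESeq2 adjusted p = 0.014) and Stat5b (0.0283). Stat5a had 159.9, 109.9 and 119 CPM in Gata2+/f, against 259, 217 and 346 CPM in Gata2+/+ (log2 fold change -1.08 ± 0.27 SE; edgeR adjusted p = 0.109). Stat5b and Jak2, the other signal carriers named by the rule, had log2 fold changes of -0.99 ± 0.27 and -0.76 ± 0.24 (SE), with no overlap between groups. Thpo, the hormone, which the liver makes, was at 0 in every library.

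Of the TIMP family and the proteases that TIMP3 inhibits, 9 of 15 listed were tested, 5 were higher and 4 lower, with a median of 0.077. In edgeR the unadjusted p was under 0.05 for 3 higher and 0 lower genes of the 9, against 11.1% and 11.5% of all tested genes. None passed the adjusted threshold, and DESeq2 called 1 higher and 0 lower, against 6.08% and 5.71%. Mmp9, a gelatinase of neutrophils, had 12.5, 14.8 and 63.5 CPM in Gata2+/f, against 2.04, 7.59 and 1.81 CPM in Gata2+/+ (log2 fold change 2.99 ± 0.85 SE; edgeR adjusted p = 0.131, DESeq2 adjusted p = 0.00403). Mmp8, a neutrophil collagenase, and Adam17, the sheddase, had log2 fold changes of 2.11 ± 0.81 and 0.74 ± 0.29 (SE). Mmp8 is also on the late neutrophil list, whose summed level differed as given above.

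The other marker lists were of erythroid, stem, monocyte, B, and T and NK cells. Erythroid markers summed to 6330, 4366 and 7303 CPM in Gata2+/f, against 8513, 10807 and 8149 CPM in Gata2+/+, with 7 of 12 higher and 5 lower. Stem cell markers summed to 12.4, 54.4 and 45.9 CPM in Gata2+/f, against 32.5, 74.5 and 87.5 CPM in Gata2+/+, with 5 of 8 tested genes higher and 3 lower. Monocyte markers, which include F13a1 of the granule list, were higher in 8 of 8 genes and summed to 793, 917 and 1958 CPM in Gata2+/f, against 219, 625 and 271 CPM in Gata2+/+. B cell and T and NK cell markers stayed at 107 CPM or less in sum in every library. In each of these lists 5 of 5 tested genes were higher in Gata2+/f, against 51.1% of all tested genes. B cell markers summed to 15.6, 20.6 and 24.3 CPM in Gata2+/f, against 3.44, 9.52 and 6.93 CPM in Gata2+/+. T and NK cell markers summed to 22.2, 107 and 44.2 CPM in Gata2+/f, against 10.6, 35.9 and 42.6 CPM in Gata2+/+. Nkg7 held 105 CPM of the sum in Gata2+/f library 9.

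**Figure D5:**
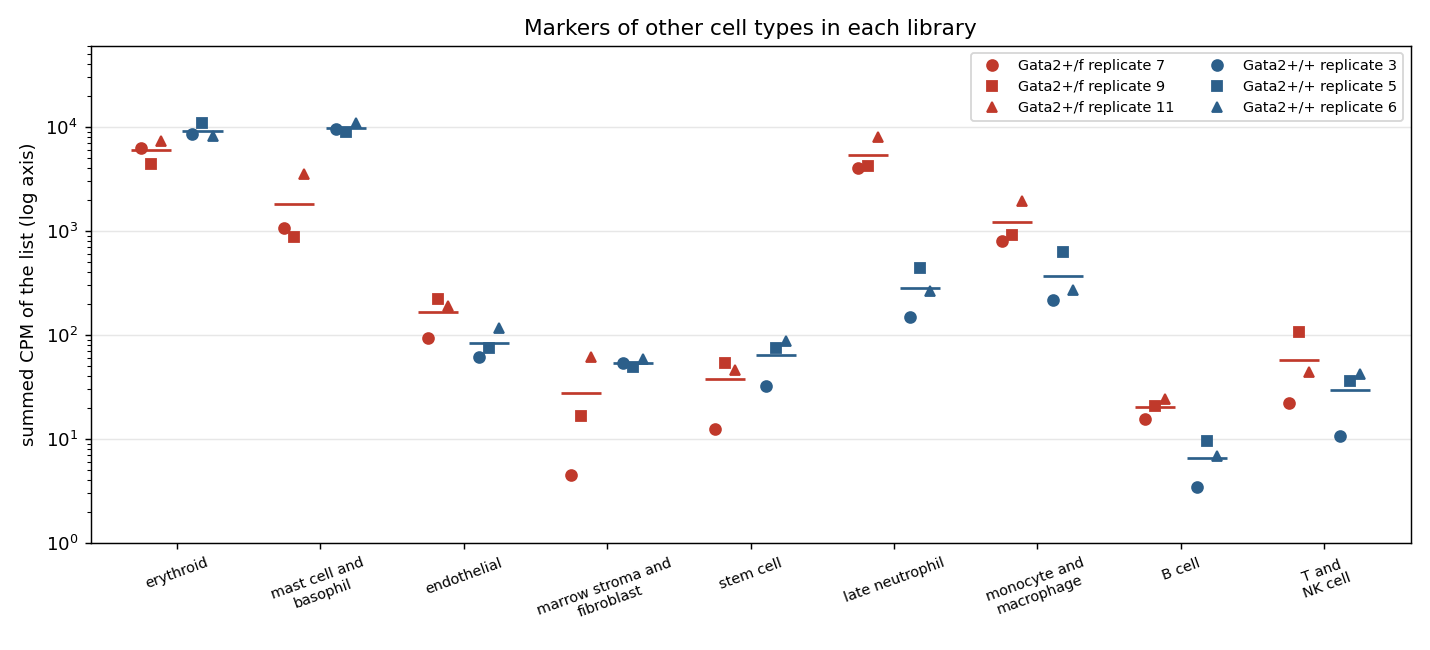
Summed level of each cell type marker list in CPM on a log axis, 1 point per library, Gata2+/f left of Gata2+/+. Late neutrophil markers lie between 3988 and 7937 CPM in Gata2+/f and between 149 and 436 CPM in Gata2+/+, and mast cell markers between 880 and 3547 CPM in Gata2+/f and between 8861 and 10909 CPM in Gata2+/+.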

How the data were processed

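RNA-seq libraries of c-kit+ bone marrow of leukaemic mice were compared, 3 Gata2+/f with 3 Gata2+/+, grouped by the labels' genotype. Nothing in the labels says that each library came from a separate mouse, so p-values measure the spread between these samples. The deposited values are expected counts per Ensembl gene, made by the authors with CASAVA 1.8.2, STAR 2.5.4a and RSEM 1.3.0 on GRCm38, per the submitters' processing notes. Libraries were poly-A selected with a stranded kit, per the labels' protocols; the annotation release and the strand setting of the counting are not given in the sources used here, so antisense overlaps are uncertain. Of the values, 11.7% were not whole, and all were rounded for the tests.

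Symbols came from GENCODE M21, which held 97.5% of 43629 IDs. Genes passing filterByExpr (minimum count 10; 15432 genes) were scaled by TMM and tested with edgeR 4.0.16 in R 4.3.3 (quasi-likelihood test, two-sided, no covariate, Benjamini-Hochberg over all tested genes, threshold 0.05). Scaling moved the median log2 fold change over the tested genes, which was 0.019 under TMM and 0.111 under upper quartile factors. CPM use TMM-scaled totals. Levels per kb divide by the union of exons. The scripts were tested on simulated data. Alternatives were DESeq2 1.42.0, limma 3.58.1 voom, the newer edgeR form, other scalings and filters, and each library left out in turn.

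The members, gene lists and tests were chosen with earlier results of these data known. Genes that could be named were all members, Gata2, the 3 genes with the smallest p of each pathway list, the 3 most abundant of each marker list, the 2 nearest patterns of each member, overlapping genes, and neighbours of Gata2 and Gp9 within 500 kb. Other names were chosen after their values were seen. Protein sequences were not used here, and some genes of the lists are not reported by name.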

Additional observations from a re-analysis of the deposited data

How the results depend on the processing

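No paired analysis was possible because the groups share no replicate numbers. The count of all genes past the adjusted threshold was 0 with edgeR's quasi-likelihood test, with 3486 at an unadjusted p under 0.05; it was 1809 with DESeq2, 32 with the newer edgeR form, 9 with voom, 19 without a filter, 444 at an adjusted p of 0.1, and 0 to 66 when each library was left out in turn (66 without Gata2+/f library 11, 1 without Gata2+/+ library 6, 0 without any of the other 4). Of the 10 members, 3 passed with DESeq2 (Itga2b, Selp and Timp3). With a filter of 1 CPM in 3 libraries, which leaves out Gp1bb, Gp9, Pf4 and Treml1, 1 member was higher. Leaving out libraries gave 3 to 6 members higher, 4 to 7 lower and 3 to 6 at an unadjusted p under 0.05. The log2 fold change of Gp1bb was 0.026 with DESeq2 and with its size factors, 0.015 without a filter and -2.72 to 2.04 when each library was left out; that of Treml1 was -0.018 with voom and -0.7 to 0.75; that of Itgb3 was -1.08 to 0.77; and that of Pf4 was -0.59 to 4.97. Of 126 member values under alternatives, 111 kept direction and side of the threshold, 3 moved past it and 12 reversed; the causes were not tested. The differences of Gp1ba and Gp9 did not pass the threshold under any of these alternatives in which they had a value.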

Other observations

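Gp9 starts 416 kb from Gata2 on chromosome 6. Among 16 tested genes within 500 kb of Gp9, 6 were higher and 10 lower in Gata2+/f, 1 and 3 of them at an unadjusted p under 0.05 in edgeR. Gata2 itself was 1 of these 3. Among 15 such genes around Gata2, 9 were higher and 6 lower, 2 and 0 of them at that p. Over all tested genes, 51.1% were higher and 48.9% lower, and 11.1% and 11.5% were so at that p. Rpn1, a subunit of the oligosaccharyltransferase, lies 109 kb from Gata2 and had 190, 305 and 176 CPM in Gata2+/f, against 81.5, 122 and 116 CPM in Gata2+/+ (log2 fold change 1.07 ± 0.29 SE; edgeR quasi-likelihood test, adjusted p = 0.126). Prokr1, a prokineticin receptor, had 7, 6 and 20 expected counts in Gata2+/f, against 50, 77 and 44 in Gata2+/+ (log2 fold change -2.57 ± 0.65 SE; edgeR adjusted p = 0.112). DESeq2 gave an adjusted p of 0.0211 for Rpn1 and of 0.00844 for Prokr1. Ruvbl1 and Hmces had log2 fold changes of 0.68 ± 0.29 and 0.64 ± 0.35 (SE).

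The surroundings of Pf4 were looked at after its values were seen. Of 5 tested genes within 500 kb, 3 were higher and 2 lower in Gata2+/f, and none had an unadjusted p under 0.05 in edgeR. Cxcl2, another chemokine gene 131 kb away, had 1.09, 17.8 and 30.0 CPM in Gata2+/f, against 9.84, 2.01 and 0.638 CPM in Gata2+/+, so that library 9 was not its highest.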
